A study of Arabidopsis thaliana with 44 samples.

Results

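The mitochondrion-encoded genes were taken as all rows of the deposited count table whose identifier begins with ATMG, which gave 146 of 60885 genes and transposable elements. RNA was sequenced from shoot apices of Arabidopsis thaliana Col-0 seedlings grown under 16 h of light and 8 h of dark and collected 7 days after germination. The 44 libraries comprised 8 of each wild type, labelled wt col-0 and wt21, and 4 of each mutant. The mutants were ddm1, the single mutants ago4, ago5 and ago9, and the combined mutants ago4ago9, ago5ago9 and ago4ago5ago9. ARGONAUTE (ago) proteins bind small RNAs, and DDM1 remodels chromatin and is needed to silence transposable elements. The labels give no alleles, no difference between both wild types and no statement on whether replicates came from separate plantings. The p-values below measure the spread between these samples only, which may be technical.

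The mitochondrial genome of plants encodes a small part of the proteins of its organelle, mainly membrane subunits of the respiratory chain and of the ATP synthase, ribosomal proteins and factors that attach haem to c-type cytochromes, together with ribosomal and transfer RNAs. All other mitochondrial proteins are encoded in the nucleus and imported. Most plant mitochondrial RNAs lack a stable poly(A) tail, and Smart-seq3, the library method named in the labels, starts cDNA synthesis from an oligo-dT primer. How these RNAs entered the libraries was not tested. Chromosome 2 of Col-0 carries a large insertion of mitochondrial DNA, so several of these genes have a nearly identical nuclear copy.

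Of the 146 rows, 125 had a count in at least 1 library, 21 had none, and 25 had a count in all 44 libraries. The filter on low counts left 41 rows for testing. The reference notes used here describe 24 of the 146 rows as a protein of known type, through a matching gene on chromosome 2, and these rows are named by that description. All others, including the 3 most abundant, are given by identifier only, and some of them may encode the same kinds of product or structural RNAs. A gene list written for this report, not taken from those notes, places ATMG00020 and ATMG01390 among mitochondrial ribosomal RNAs. These rows held on average 71.9% and 4.14% of mitochondrial counts, so the mitochondrial share below mostly reflects ATMG00020.

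Libraries held 4474810 to 10620119 counts. Mitochondrial rows took 0.255% to 1.07% of them, chloroplast rows 1.97% to 14.5%, and the single nuclear row AT3G41768 took 1.17% to 12.9%. A count of 0 allowed a level of up to 3 counts, which is 0.282 to 0.670 CPM (counts scaled to a common library size), and such limits cover counting error only. AGO4 had 108 to 334 counts in the wild-type libraries and 0 to 8 in those labelled ago4. It had 1 and 0 counts in ago9 replicates 1 and 2 but 97 and 109 in replicates 3 and 4, and 77 to 264 in the libraries labelled ago4ago5ago9, so these groups are named as labelled. DDM1 had 1 to 7 counts in ddm1 and 51 to 174 in the wild types. Shoot meristem markers summed to 9.06 to 13.8 CPM in wild-type replicates 1 to 4, and root markers to at most 0.494 CPM.

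The mitochondrial share was variable within every group. In wild-type replicates 1 to 4 the lowest, median and highest values were 0.587%, 0.870% and 0.987% of counts. In wild-type replicates 5 to 8 they were 0.255%, 0.511% and 0.760%. These sets overlapped, with the lower values in replicates 5 to 8.

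In libraries labelled ago4 the share was 0.458%, 0.688%, 0.334% and 0.469%, and in ago5 it was 0.672%, 0.333%, 0.819% and 0.524%. In ago9 it was 0.459%, 0.409%, 0.557% and 0.762%, and in ago4ago9 it was 0.965%, 0.346%, 0.492% and 0.406%. Every one of these groups overlapped wild-type replicates 1 to 4. In ago5ago9 the share was 0.427%, 0.420%, 1.05% and 0.491%, and in ago4ago5ago9 it was 0.841%, 0.408%, 0.381% and 0.550%. In ddm1 it was 0.782%, 0.314%, 1.07% and 0.385%, a wider range than in any of the other mutants. In ago4, ago9, ago4ago9, ago5ago9 and ago4ago5ago9 alike, 3 of 4 libraries lay below all wild-type libraries of replicates 1 to 4, and in ago5 and ddm1 2 of 4 did.

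**Figure D1:**
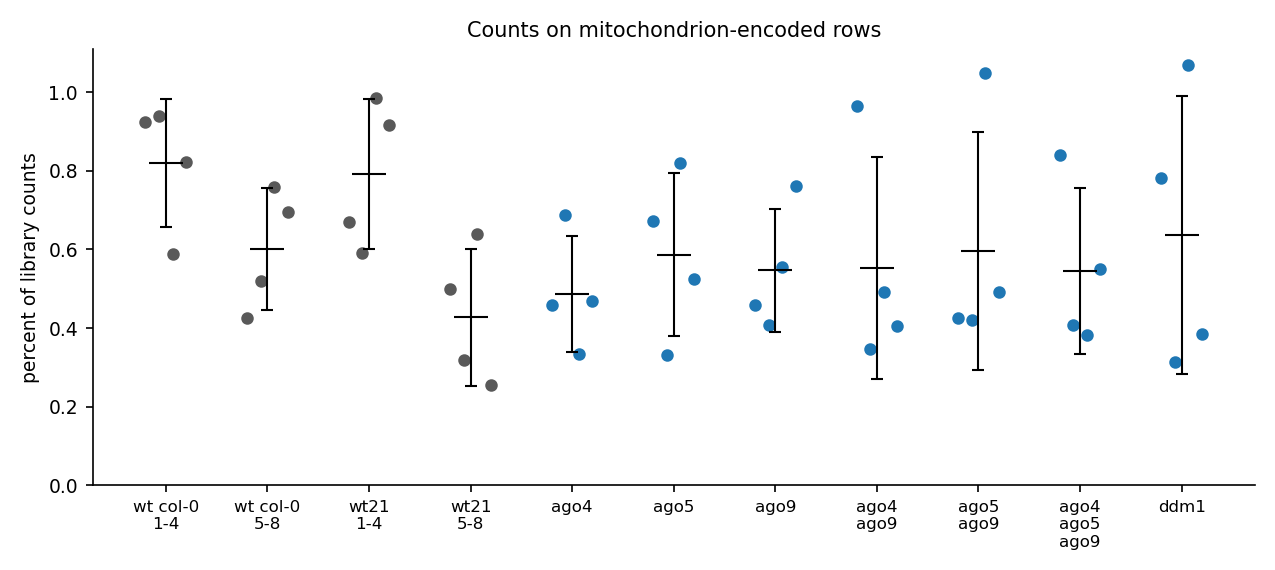
Each point is 1 library and shows the percent of its counts on mitochondrion-encoded rows, with wild types split by replicate number; lines and bars are the mean and SD of 4 libraries. The points run from 0.255% to 1.07%, and every mutant group overlaps wild-type replicates 1 to 4.

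Mean shares were 0.805% ± 0.165 (SD, n = 8) in wild-type replicates 1 to 4 and 0.514% ± 0.178 (SD, n = 8) in replicates 5 to 8, a log2 ratio of -0.65. The log2 ratio of mean shares in mutants to wild-type replicates 1 to 4 ran from -0.72 in ago4 to -0.34 in ddm1. Against wild-type replicates 5 to 8 it ran from -0.077 in ago4 to 0.31 in ddm1, so the direction depended on which wild-type libraries served as controls. These ratios are a description without a test.

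The share moved with depth and with other rows. The 10 libraries with the fewest counts had a median mitochondrial share of 0.791% and a median chloroplast share of 8.33%. The 10 with the most counts had medians of 0.462% and 4.52%. AT3G41768 had medians of 8.53% and 3.53% in the same sets. The part of depth in the mitochondrial share was not tested.

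Mitochondrial counts were concentrated in a few rows. ATMG00020 took 59.1% to 89.4% of them, ATMG00030 2.58% to 31.5% and ATMG01390 1.99% to 6.17%. These 3 rows together held 93.4% to 96.9% of mitochondrial counts, and the 10 most abundant rows held 98.1% to 99.1%. The remaining 7 of those 10 were ATMG01190 (ATP synthase subunit 1), ATMG00090, ATMG01080 (mitochondrial F0-ATPase subunit 9), ATMG00830, ATMG00080, ATMG01200 and ATMG01360. Their mean shares of mitochondrial counts, in that order, were 0.806%, 0.790%, 0.534%, 0.228%, 0.152%, 0.145% and 0.108%. These shares are not corrected for length. The mean shares of ATMG01190 and ATMG00090 lay within the SD between libraries of each, 0.134% and 0.159%.

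ATMG00030 stood far below its usual level in 2 libraries. It held 2.81% of the counts of ATMG00020 plus ATMG00030 in ago9 replicate 3 and 2.83% in ago5ago9 replicate 1. In the other 42 libraries it held 17.0% to 34.8%. The other 3 ago9 libraries were at 24.5%, 25.9% and 22.2%, and the other 3 ago5ago9 libraries at 22.6%, 22.6% and 18.9%. The sum of both rows was 91.9% of mitochondrial counts in ago9 replicate 3 and 91.0% in ago5ago9 replicate 1, within the 88.5% to 94.3% of all libraries. ATMG00020 held 89.4% and 88.5% of mitochondrial counts there. Shares of 1 total rise when another share falls, so neither these values nor the sum show whether ATMG00020 itself rose. Its level was 5611 CPM in ago9 replicate 3 and 3135 to 5566 CPM in the other 3 ago9 libraries. In ago5ago9 replicate 1 it was 3985 CPM, within the 3018 to 7302 CPM of the other 3 ago5ago9 libraries.

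**Figure D2:**
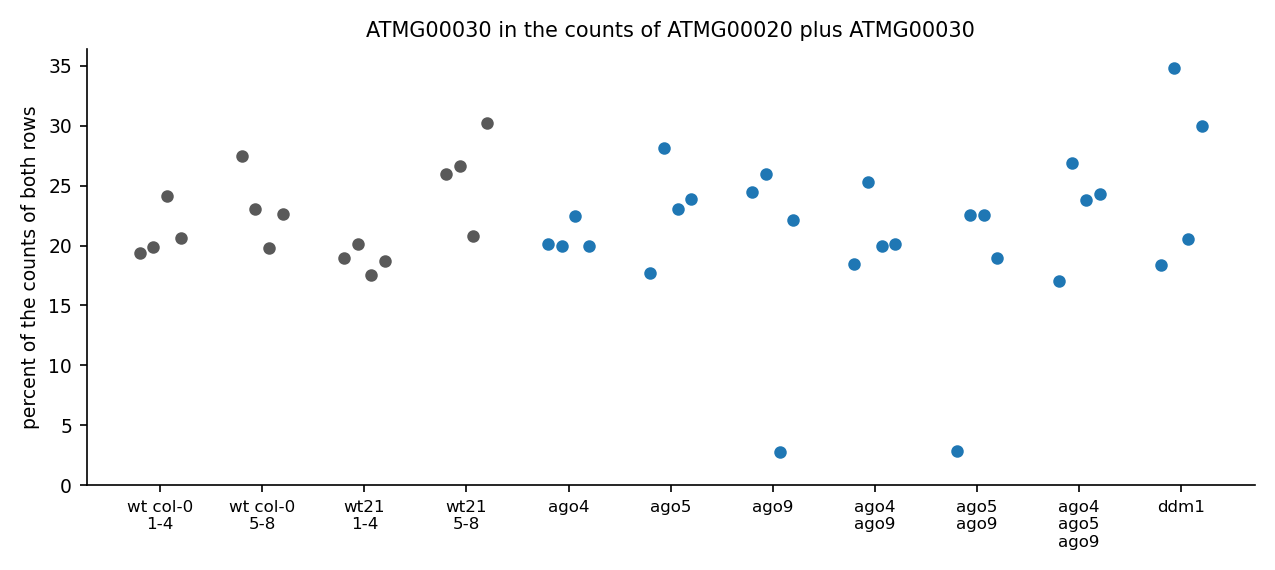
Each point is 1 library and shows ATMG00030 as a percent of the counts of ATMG00020 plus ATMG00030, by group and, for wild types, by replicate number. ago9 replicate 3 and ago5ago9 replicate 1 lie at 2.81% and 2.83%, and the other 42 libraries at 17.0% to 34.8%.

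ATMG00030 was called in neither of the groups that held a low library. ATMG00030 differed from wild-type replicates 1 to 4 by -0.55 ± 0.39 (log2 fold change ± SE, edgeR quasi-likelihood test, adjusted p = 0.604) in ago9 and by -0.54 ± 0.39 (adjusted p = 0.633) in ago5ago9. Without ago9 replicate 3 the difference in ago9 was -0.19, and without ago5ago9 replicate 1 that in ago5ago9 was -0.17. Apart from these libraries, the highest values of ATMG00030 were in ddm1 replicates 2 and 4, at 34.8% and 29.99% of both rows, and in wt21 replicate 8, at 30.2%.

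Among the 19 rows with a mean of at least 20 counts, the steadiest level was that of ATMG01080, which encodes a subunit of the membrane-embedded proton channel of the ATP synthase. Its level ran from 18.5 to 45.0 CPM over the 44 libraries, with an SD of 0.25 on the log2 scale within groups. ATMG00020 ran from 1466 to 8239 CPM, with an SD of 0.61. ATMG00990 (NADH dehydrogenase 3), a subunit of respiratory complex I, was the most variable, with 0.840 to 15.6 CPM and an SD of 1.14. ATMG00990 had a mean of 37.4 counts and ATMG01080 of 203, and the part of counting error in their SDs was not tested.

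Rows were also compared by the likeness of their shares of mitochondrial counts over all 44 libraries (Pearson correlation of log2 shares with 0.5 counts added, as a description). All shares come from the same libraries and have a fixed sum. The rows most like ATMG01390 were ATMG00080 (r = 0.59), ATMG00520 (r = 0.44) and ATMG00990 (r = 0.43). Those most like ATMG00020 were ATMG01390 (r = 0.28), ATMG00990 (r = 0.07) and ATMG00080 (r = 0.01). Those most like ATMG00030 were ATMG01080 (r = 0.27), ATMG01200 (r = 0.25) and ATMG00580 (r = 0.25). Without the 2 libraries low in ATMG00030, its likeness to ATMG01080 was 0.81, and ATMG01170 (r = 0.67) and ATMG00580 (r = 0.64) followed.

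No mitochondrial row was called in any of the 6 groups of ago mutants when compared with the 8 wild-type libraries of replicates 1 to 4. A row was called at an adjusted p under 0.05 in the edgeR quasi-likelihood test, adjusted over all 17557 features. Calls were rare among all features too, with 0.365% called for ago4, 0.0171% for ago5, 0.0342% for ago9, 0.302% for ago4ago9, 0.518% for ago5ago9 and 0.12% for ago4ago5ago9. DESeq2 called 0 rows as well, but it gave an adjusted p to all 41 rows only for ago5 and ago4ago9 and to 7 for ago4, 3 for ago9, 14 for ago5ago9 and 11 for ago4ago5ago9. At an unadjusted p under 0.05 there were 15 rows for ago4ago5ago9, where 12.3% of all features passed, and 10 for ago4, where 13.6% passed. There were 7 for ago5 (7.16% of all features), 5 for ago9 (11.2%), 7 for ago4ago9 (9.76%) and 0 for ago5ago9 (11.9%).

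Most fitted differences in the ago groups were negative. Of 41 rows, 38 were negative for ago4, 32 for ago5 and 34 for ago9. The combined mutants had 33 (ago4ago9), 31 (ago5ago9) and 35 (ago4ago5ago9). The median log2 fold changes in the same order were -0.60, -0.39, -0.40, -0.41, -0.27 and -0.64, whereas the median over all features was 0 in each. These comparisons share their control libraries, and mitochondrial rows of a library can move together with its mitochondrial share. The medians are therefore not separate results.

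When only the libraries compared entered the fit, ATMG00090 was called lower for ago4 (-0.74), ago4ago9 (-0.85) and ago4ago5ago9 (-0.92), and ATMG00660 for ago4 (-1.43). Of all features, 0.828%, 0.311% and 0.444% were called in those fits. Without ago4ago9 replicate 1, 2 rows were called lower (ATMG00660 and ATMG01360), with 0.859% of all features called. Without ago4ago5ago9 replicate 1, 2 rows were called lower (ATMG00090 and ATMG00670), with 0.831% of all features called. ATMG00580 had the opposite sign from most rows. Its level was 3.50 ± 1.73 CPM (SD, n = 8) in wild-type replicates 1 to 4 and 8.57 ± 4.37 CPM (SD, n = 4) in ago4ago5ago9, but the difference of 1.39 ± 0.42 (log2) did not pass (adjusted p = 0.146 by edgeR).

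**Figure D3:**
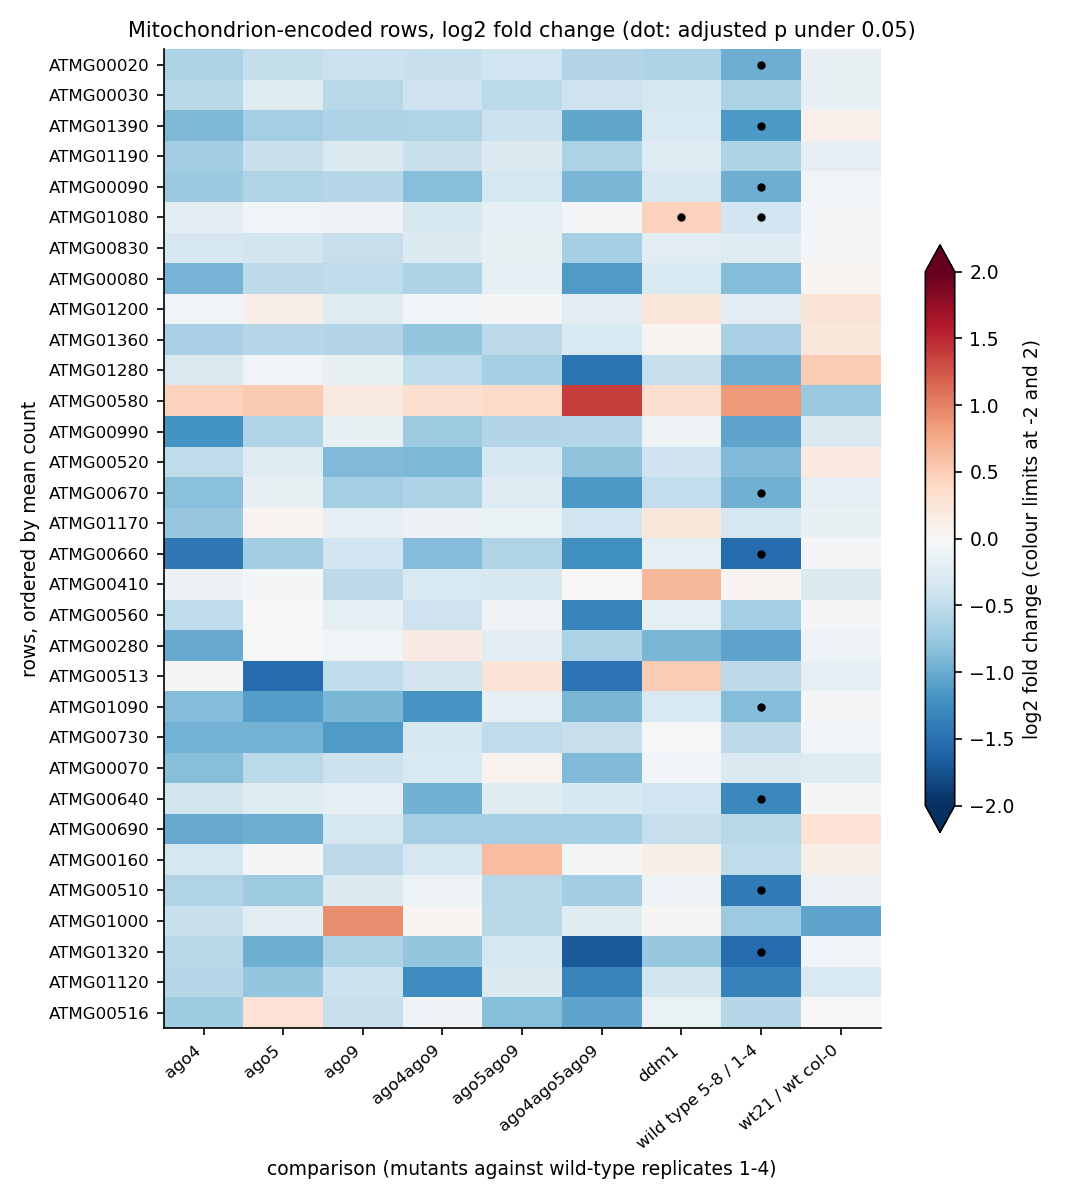
Log2 fold changes of the 32 tested rows with a mean of at least 5 counts and a count in at least 40 libraries, by comparison; colour limits are at -2 and 2 and dots mark an adjusted p under 0.05. The 11 dots are the single row called in ddm1 and the 10 rows called between wild-type replicate sets.

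In ddm1, 1 of 41 mitochondrial rows was called, and it rose, against 13.8% of all features called higher and 10.1% called lower. At an unadjusted p under 0.05 there were 3 of 41 rows, 7.32%, against 34.2% of all features. The called row was ATMG01080, the F0-ATPase subunit 9 gene. Its level was 34.8, 40.3, 45.0 and 44.7 CPM in the ddm1 libraries. In wild-type replicates 1 to 4 the lowest, median and highest levels were 25.7, 30.1 and 35.3 CPM. The lowest ddm1 library thus lay just inside the wild-type range and the other 3 lay above it.

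The log2 fold change of ATMG01080 in ddm1 was 0.46 ± 0.14 (edgeR quasi-likelihood test, adjusted p = 0.0124). Without ddm1 replicate 4 it was 0.42 and no longer called (adjusted p = 0.0548). Over the 22 alternatives that tested against no change the adjusted p ran from 3.4e-06 to 0.0548, and the row was not called when a log2 fold change of at least 1 was required. Against wild-type replicates 5 to 8, whose levels were 19.4 to 30.4 CPM, the log2 fold change was 0.85. With those controls 4 rows were called higher, where 18.4% of all features were called, and without the filter on low counts 6 were, where 17.9% were called.

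**Figure D4:**
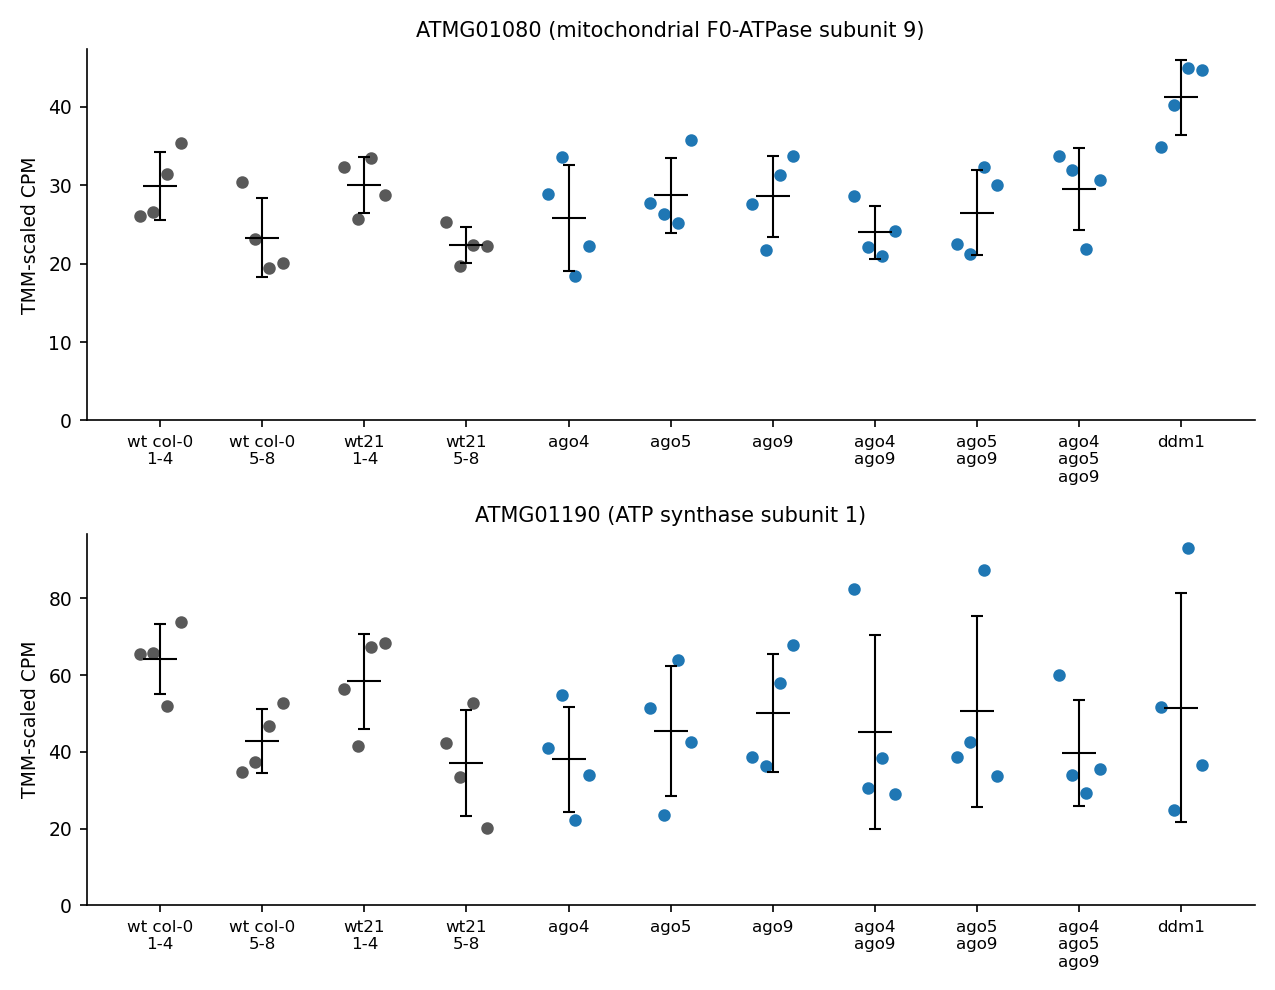
TMM-scaled CPM of ATMG01080 (top) and ATMG01190 (bottom) in each library, by group and, for wild types, by replicate number; lines and bars are the mean and SD of 4 libraries. ATMG01080 lies at 34.8 to 45.0 CPM in ddm1, and ATMG01190 spreads from 24.8 to 93.1 CPM there.

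The other ATP synthase rows were not called in ddm1. ATMG01190, whose product forms part of the catalytic head of the enzyme, had 51.7, 24.8, 93.1 and 36.7 CPM in ddm1. Its lowest, median and highest levels in wild-type replicates 1 to 4 were 41.5, 65.7 and 73.7 CPM. Its ddm1 libraries lay on both sides of that range (-0.26 ± 0.30, adjusted p = 0.588 by edgeR). ATMG00410 (ATPase subunit 6-1), a subunit of the proton channel, had a log2 fold change of 0.66 ± 0.35, ATMG01090 of -0.31 ± 0.34 and ATMG00480 (F0 complex subunit 8) of -0.43 ± 1.20.

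As a share of mitochondrial counts, ATMG01080 held 0.459%, 1.63%, 0.484% and 1.28% in ddm1. Replicates 2 and 4, the high values here, had the lowest mitochondrial shares of their group (0.314% and 0.385%) and totals of 10236143 and 10620119 counts. Replicates 1 and 3 had 6618812 and 6516901 counts. In ddm1 the ATMG01080 level stayed within 34.8 to 45.0 CPM while that of ATMG00020 ran from 1466 to 6589 CPM.

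Levels per kb of coding sequence could be given for 11 described rows with a coding length in RefSeq TAIR10.1, which leaves out ATMG00090 and most other rows. Among them ATMG01080 had 133 ± 16.3 CPM per kb (SD, n = 8) in wild-type replicates 1 to 4. ATMG01190 had 40.2 ± 6.94 CPM per kb in the same libraries. The order was the same in ddm1, at 183 ± 21.2 and 33.8 ± 19.6 CPM per kb (SD, n = 4). ATMG00990 followed with 22.0 ± 7.76 CPM per kb, and ATMG00730 (cytochrome c oxidase subunit 3) with 3.48 ± 0.911, both in wild-type replicates 1 to 4. ATMG00220 (apocytochrome b), the central subunit of complex III, was at 0 in all 8 of those libraries and had a count in only 8 of 44. The order of ATMG01080 and ATMG01190 rests on the division by length. Undivided, their mean counts over all 44 libraries were 203 and 328. Whether counts grow with gene length here was not tested, and the use of molecular identifiers is not given in the sources used here.

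Among tested rows that the notes describe, the other roles gave no call in ddm1, with 0 of 2 cytochrome c oxidase rows, 0 of 1 cytochrome b row, 0 of 2 NADH dehydrogenase rows and 0 of 3 ribosomal protein rows. Rows without a description are not counted by role here. Both cytochrome c oxidase rows, ATMG00730 and ATMG01280, had fold changes near or below 0 (-0.01 and -0.47). The 3 rows described as cytochrome c biogenesis or assembly proteins had too few counts to be tested.

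Green leaf cell markers were lower in ddm1, and nuclear genes for mitochondrial proteins were often called there. The 3 leaf markers (RBCS1A, CAB1 and RCA) summed to 32460 to 49121 CPM in ddm1 and 71375 to 91249 CPM in wild-type replicates 1 to 4. The part of this difference in the results below was not tested. Of 40 tested nuclear genes chosen for mitochondrial roles, 21 rose and 1 fell in ddm1, against 13.8% of all features called higher and 10.1% called lower. Their median log2 fold change was 0.31, and that of all features 0.01. The count depended on the libraries used. It was 10 without ddm1 replicate 4 and 14 without ddm1 replicate 2. Against wild-type replicates 5 to 8, 7 of the 40 were called, near the 18.4% of all features called there. With that control EMB1467 fell and 6 genes were higher, where HSP60, mtHsc70-1, AT2G21640, VDAC1, MTSSB and MPPBETA, which encodes a mitochondrial processing peptidase subunit, were called. The numbers of lost calls given below count 12 fits that left out 1 library each and 10 other settings.

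Among nuclear respiratory chain and ATP synthase subunits, 12 of 17 rose and 1 fell, where 13.8% of all features were called higher. Against wild-type replicates 5 to 8 only 1 of the 17 rose (MPPBETA) and 1 fell. SDH2-1, an iron-sulfur subunit of succinate dehydrogenase, rose by 0.67 ± 0.13 on the log2 scale, from 30.9 ± 2.41 CPM (SD, n = 8) to 49.0 ± 4.87 CPM (SD, n = 4), and was not called against wild-type replicates 5 to 8 (0.28). ATP3, a subunit of the ATP synthase, rose by 0.29 ± 0.10, but its call was lost without 1 library in 3 fits and in 3 other settings (lowest value 0.05). ATP5, another subunit, rose by 0.33 ± 0.12, with the call lost in 5 and 5 (lowest value 0.07). CYTC-1, which encodes cytochrome c, rose by 0.53 ± 0.16, with the call lost in 2 and 2. EMB1467, a subunit of complex I, fell by 0.55 on the log2 scale and was called in every one of these fits.

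Of 7 tested genes of alternative respiration and mitochondrial stress, 4 rose and 0 fell in ddm1, where 13.8% of all features were called higher. HSP60, a mitochondrial chaperonin, rose from 72.2 ± 7.95 to 118 ± 8.40 CPM, a log2 fold change of 0.71 ± 0.09 (adjusted p = 1.7e-08 by edgeR). The chaperone gene mtHsc70-1 rose by 0.53 ± 0.08. AT2G21640, known to respond to oxidative stress, rose from 1.03 ± 0.433 to 2.40 ± 0.491 CPM, a log2 fold change of 1.24 ± 0.33. Its call was lost in 0 fits without 1 library and in 1 other setting. NAC13, a transcription factor of mitochondrial stress responses, rose by 0.80 ± 0.28, with the call lost in 5 fits without 1 library and in 4 other settings (lowest value 0.18, highest adjusted p = 0.737 by edgeR). HSP60 and mtHsc70-1 were called in all of these fits.

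Of 4 import and carrier genes, 3 rose in ddm1, where 13.8% of all features were called higher. Among them were VDAC1, an outer membrane channel, with a rise of 0.47 ± 0.09, and AAC1, an ADP/ATP carrier, with 0.35 ± 0.11. The call of AAC1 was lost in 2 fits without 1 library and in 4 other settings, and that of VDAC1 in none. MTSSB, a protein that binds single-stranded mitochondrial DNA, was the only one of 7 DNA maintenance genes called, with a rise of 0.70 ± 0.17. Neither of the 2 organelle RNA polymerase genes was called (median -0.18). In none of the 6 ago groups was any of the 40 nuclear genes called by edgeR.

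Several mitochondrial rows were lower in wild-type replicates 5 to 8 than in replicates 1 to 4. This comparison has 8 libraries on each side and a smaller median SE over the 41 rows (0.37) than those of the mutants (0.45 to 0.49), so its count of calls cannot be set beside theirs. The labels give no reason for the numbering, and all mutant libraries have numbers 1 to 4. Of 41 rows, 10 were called lower and 0 higher by edgeR, against 9.35% of all features called lower and 9.23% called higher. DESeq2 called 11. At an unadjusted p under 0.05 there were 24 of 41 rows, 58.5%, against 31.2% of all features. With a log2 fold change of at least 1 required, 5 were called, against 3.17% of all features. With only these libraries fitted 21 were called (19 lower, 2 higher), against 24.3%. The median log2 fold change of the 41 rows was -0.67, with 36 negative, and over all features it was 0. The mitochondrial share itself had a log2 ratio of -0.65. Rows of a library can move together with that share, so these calls are not separate results. Not every row followed it. ATMG00580, which was not called, had log2 fold changes of 0.70 ± 0.48 in wt col-0 and 1.01 ± 0.54 in wt21.

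ATMG00090 had lowest, median and highest levels of 53.9, 68.2 and 77.7 CPM in replicates 1 to 4 and of 21.9, 38.8 and 42.1 CPM in replicates 5 to 8. The sets did not overlap, and it differed by -0.97 ± 0.20 on the log2 scale (edgeR, adjusted p = 5.3e-04). ATMG00660 had 3.79 to 8.58 CPM in replicates 1 to 4 and 1.13 to 2.71 CPM in replicates 5 to 8, again without overlap, a log2 fold change of -1.54 ± 0.36. ATMG00670 had 4.02 to 6.72 and 1.41 to 4.002 CPM, and its sets lay side by side without overlap (-0.96 ± 0.22). ATMG01390 had 258 to 560 and 82.3 to 252 CPM, also without overlap (-1.15 ± 0.38).

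ATMG00020, the most abundant row, had 4095, 6294 and 7948 CPM as lowest, median and highest levels in replicates 1 to 4 and 1498, 3073 and 4977 CPM in replicates 5 to 8. The sets overlapped, and the difference was -0.97 ± 0.28 on the log2 scale (edgeR, adjusted p = 0.0113). ATMG00030 was not called (-0.63 ± 0.31, adjusted p = 0.156 by edgeR). ATMG00510 and ATMG00640 were called with log2 fold changes of -1.41 and -1.29, at mean levels of 1.63 and 2.09 CPM in replicates 1 to 4.

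Among tested rows with a described role, 2 of 5 ATP synthase rows and 1 of 2 NADH dehydrogenase rows were called lower. Of all features, 9.35% were called lower. The other 7 called rows have no description in the notes used here, so these counts do not cover all genes of either role. The gene list written for this report places ATMG00640 among ATP synthase genes and ATMG00510 among those of NADH dehydrogenase. ATMG01080 had the smallest change of the 10 called rows, from 29.95 ± 3.68 to 22.8 ± 3.66 CPM (SD, n = 8), or -0.39 ± 0.12 on the log2 scale (edgeR, adjusted p = 0.0174). ATMG01090 (ATP synthase 9 mitochondrial) changed by -0.87 ± 0.28, and ATMG01320 (NADH dehydrogenase 2B) by -1.53 ± 0.49. ATMG01190 was not called (-0.61 ± 0.24, adjusted p = 0.0683 by edgeR), nor were ATMG00990 (-1.06 ± 0.47) and ATMG01280 (-0.98 ± 0.37).

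Most rows had the same direction in both wild types. Within wt col-0 33 of 41 rows were negative and within wt21 37, with 31 negative in both and 1 positive in both. All 10 called rows were negative in each, and 9 of them had the larger fall in wt21. Within wt col-0 alone 3 rows were called, 2 of them lower (ATMG00090 and ATMG00660), where 9.9% of all features were called. The remaining row, ATMG00290, was higher there by 7.46 ± 2.42 on the log2 scale and differed by -0.80 ± 1.05 in wt21. It had a count in only 27 of 44 libraries. Within wt21 alone 4 were called lower (ATMG00090, ATMG00510, ATMG00640 and ATMG00670), where 4.16% of all features were called. A test of the difference between the wild types called 0 of the 41 rows by edgeR (1 at an unadjusted p under 0.05).

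**Figure D5:**
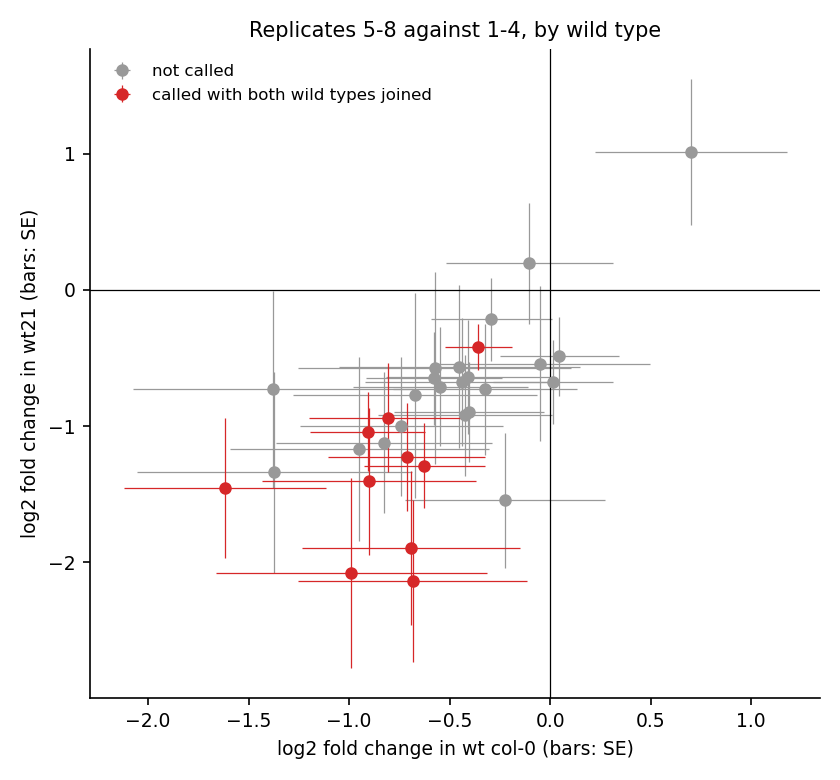
Log2 fold changes of wild-type replicates 5 to 8 against 1 to 4 in wt col-0 (x axis) and in wt21 (y axis), with SE bars, for 32 rows with a mean of at least 5 counts and a count in at least 40 libraries. The 10 rows called with both wild types joined, in red, are negative on both axes.

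Some of the 10 calls rested on single libraries. ATMG00640 was lost without wt21 replicate 3 (adjusted p = 0.0712 by edgeR). ATMG01090 was lost without wt col-0 replicate 1, 2 or 5 (0.0695, 0.0780 and 0.0613). ATMG01320 was lost without wt21 replicate 3, 6 or 8 (0.0620, 0.0520 and 0.0525). ATMG01390 was lost without wt21 replicate 3, 4, 6 or 8 (0.0507, 0.0507, 0.0558 and 0.0653) or wt col-0 replicate 5 (0.0666). The other 6 rows were called whichever library was left out.

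Other rows moved with the same split. Totals were 4985459 to 6577655 counts in replicates 1 to 4 and 7529639 to 10168457 in replicates 5 to 8, chloroplast shares were 7.11% to 13.4% and 2.38% to 6.30%, and the summed leaf markers were 71375 to 91249 and 41565 to 71268 CPM. The part of these differences in the mitochondrial rows was not tested. Of the 40 nuclear genes with mitochondrial roles, 6 rose and 0 fell, against 9.23% of all features called higher. Within wt col-0 alone 4 rose and within wt21 alone 0, and 2 rose without the filter on low counts. Without wt21 replicate 4 or 6 or wt col-0 replicate 6 the count was 3. The 6 included SDH2-1 (0.38 ± 0.11), called whichever library was left out, ATP3 (0.23 ± 0.08), lost in 8 of 16 such fits, and MSH1 (0.46 ± 0.16), which acts in mitochondrial genome maintenance and was lost in 6. The called nuclear genes were higher and the called mitochondrial rows lower in this comparison.

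Between wt21 and wt col-0, all 8 libraries of each, 0 of 41 mitochondrial rows were called by edgeR, where 0.199% of all features were called, and 0 of the 17 to which DESeq2 gave an adjusted p. At an unadjusted p under 0.05 there were 3 rows, 7.32%, against 8.72% of all features. The mean share was 0.609% ± 0.258 (SD, n = 8) in wt21 and 0.7096% ± 0.188 (SD, n = 8) in wt col-0. The median log2 fold change of the 41 rows was -0.05.

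The copies on chromosome 2 limit what the counts of single rows can show. Notes of the reference annotation tie 53 mitochondrial rows to 55 chromosome 2 genes. Aligned within TAIR10.1, these genes were 99.03% to 100% identical to the mitochondrial genome, and 28 of 55 were at 100%. Of the nonzero values of the 53 rows, 60.8% were not whole numbers, against 37.9% for the 93 rows without a listed copy. How the authors divided shared reads is not given in the sources used here, and so the origin of such reads cannot be told apart.

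In 10 of 16 pairs with a mean of at least 20 counts, the chromosome 2 row held more counts than the mitochondrial row. AT2G07727 had a mean of 55.1 counts and ATMG00220, the apocytochrome b row, 4.73. AT2G07708 had 164 counts and ATMG00500, of unknown function, 10.9. For ATMG01190 the means were 328 counts in the mitochondrial row and 206 in AT2G07698. ATMG01080 held 203 counts, 90.0% of its pair with AT2G07671, which is 100% identical to the mitochondrial genome.

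Of 19 chromosome 2 rows tested, 8 were called lower in wild-type replicates 5 to 8 and 0 higher, against 9.35% of all features called lower, with a median log2 fold change of -1.03. Leaving out 1 library gave 4 to 9 lower calls, with 4 without wt21 replicate 8 and 5 without wt21 replicate 2 or wt col-0 replicate 5. AT2G07696, AT2G07715 and AT2G07725 were lost in 5, 6 and 5 of these 16 fits. Within wt col-0 alone 0 rows were called and within wt21 alone 1. AT2G07708 fell from 35.0 ± 7.81 to 16.4 ± 5.18 CPM (SD, n = 8) without overlap. In ddm1 1 of the 19 rows rose and 0 fell, against 13.8% of all features called higher and 10.1% called lower. That row was AT2G07674, paired with ATMG01010, at 2.59 ± 1.49 CPM in wild-type replicates 1 to 4 and 8.49 ± 2.18 CPM in ddm1, without overlap and with a log2 difference of 1.70 ± 0.39 (edgeR, adjusted p = 7.9e-04). The copy of the subunit 9 gene, AT2G07671, was not called in ddm1 (0.22 ± 0.40, adjusted p = 0.747 by edgeR). In the 6 ago groups 0 of the 19 rows were called by edgeR.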

How the data were processed

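Estimated counts per gene or transposable element were deposited by the authors, unscaled and with 1 column per library. The submitters' processing notes name TAIR10 and DESeq2 without a role; the aligner, counting program, use of strand and use of molecular identifiers are not given in the sources used here. Of the nonzero values 6.26% were not whole, and all were rounded before testing. The 2 reporter rows (4.87e-05% of counts) were left out. Columns were matched to samples by name, with 0 columns unused.

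The members, gene lists and comparisons were chosen with earlier results of these data known. Features were filtered with filterByExpr, scaled by TMM (0.855 to 1.33) and fitted with 11 means (7 mutants and, for each wild type, replicates 1 to 4 and 5 to 8) in edgeR 4.0.16 (R 4.3.3). P-values from the quasi-likelihood test received Benjamini-Hochberg adjustment across 17557 features, with calls under 0.05. The SE is the fold change divided by the root of its F statistic. The procedure was tested on simulated counts of features drawn independently, with changes set only in features with many counts. That simulation does not cover changes in rows with few counts or rows that move together. Alternatives included DESeq2 1.42.0, other scalings, controls and filters, and each library left out. Rows named were those called (up to 10 per direction), the 10 with the highest mean share, the 3 most like each of the top 3, and rows that notes of the TAIR10.1 annotation describe; ATMG00580, ATMG01360 in ago4ago9 and single rows under alternatives were chosen after their values were seen. Chromosome 2 genes were aligned with BLAST+ 2.17.0. Depth per library was 4474810 to 10620119 counts, and fitted levels are TMM-scaled CPM.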

Additional observations from a re-analysis of the deposited data

Results flagged for a closer look

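Within groups, the mitochondrial share of counts and the shares of the 10 most abundant rows were searched for a library whose gap to its nearest neighbour filled most of the range of the group. Of 99 searches, each of 1 quantity in 1 of the 9 groups, 10 found one. Chance flags about 1 search in 20 when searches are independent. These were not, because the row shares come from the same libraries and have a fixed sum. ATMG00020 and ATMG00030, for example, were flagged in the same library, ago9 replicate 3. The number of flags therefore cannot show whether they exceed chance. Each wild type was searched as 1 group that held both replicate sets.

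The mitochondrial share was 1.05% in ago5ago9 replicate 3 and 0.420% to 0.491% in the other 3 libraries. As a share of mitochondrial counts, ATMG00020 was 89.4% in ago9 replicate 3 and 68.0% to 71.1% in the others, and ATMG00030 was 2.59% there and 20.3% to 23.8% in the others. ATMG00020 was 69.3% in ago4ago9 replicate 2 and 74.0% to 74.8% in the others. ATMG00030 was 21.0% in ago4 replicate 3 and 18.3% to 18.6% in the others. ATMG01190 was 0.680% in ddm1 replicate 1 and 0.998% to 1.05% in the others.

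ATMG01080 was 0.836% in wt col-0 replicate 5 and at most 0.533% in the other 7. ATMG00830 was 0.392% in wt col-0 replicate 6, against at most 0.227% in the others, and 0.309% in ago4ago5ago9 replicate 3, against at most 0.162%. ATMG01360 was 0.121% in ago5 replicate 2 and at most 0.0896% in the others.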

How the results depend on the processing

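Of the alternatives to counts of called rows and to ratios of the mitochondrial share, 364 kept the value within its spread or within 1.5 times and 23 did not. Counts of 0 called rows that stayed at 0 are among the 364. For fold changes of single rows, 1028 alternatives kept the result, 183 weakened it or lost the call, and 3 reversed its sign. With only the compared groups fitted, 2 rows were called in ago4, 1 in ago4ago9, 1 in ago4ago5ago9 and 21 between wild-type replicate sets (10 before). With wild-type replicates 5 to 8 as control, 1 row was called in ago9 and 4 in ddm1, the log2 ratio of the mitochondrial share was 0.31 (ddm1), 0.215 (ago5ago9), 0.19 (ago5), 0.104 (ago4ago9), 0.089 (ago9), 0.085 (ago4ago5ago9) and -0.077 (ago4), and the log2 fold change changed sign for ATMG00030 in ago9 (0.0775) and ago5ago9 (0.0839) and for ATMG00020 in ddm1 (0.35). In ddm1, 2 rows were called with wt col-0 replicates 1 to 4 as control, 6 without a filter and 0 at a log2 fold change of at least 1. Between wild-type replicate sets 5 were called at that fold, 3 within wt col-0 and 4 within wt21. The cause of these shifts was not tested. Leaving out 1 library gave 0 to 2 calls in ddm1, 0 to 2 in ago4ago9, 0 to 2 in ago4ago5ago9 and 8 to 14 between wild-type replicate sets. No share of all features called is given for most of these fits. It is also missing for ago9 against wild-type replicates 5 to 8 and ddm1 against wt col-0 replicates 1 to 4. Counts without such a share cannot be set against all features. Without the 3 most abundant rows the log2 ratio of shares in ddm1 was 0.12, within the spread between libraries.

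Of 144 same-number pairs across groups 28 had a correlation of deviations over 0.1 (mean 0.02), against 44 of 432 different-number pairs (mean -0.0066). Of 36 libraries, 20 had their highest mean correlation with libraries of their own number. Libraries with the same number were thus slightly more alike on average, which was not tested further. A replicate block gave 1 call in ddm1 and 0 in the other mutants and in wt21 against wt col-0. No block was possible between wild-type replicate sets, which share no numbers. Depth left 105 of 146 rows untested.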
